A study of Mus musculus with 16 samples.

Results

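The platelet-derived growth factor (PDGF) system was followed as messenger RNA through 9 genes chosen by symbol: the 4 ligand genes Pdgfa, Pdgfb, Pdgfc and Pdgfd, the 2 receptor genes Pdgfra and Pdgfrb, the protease genes Plat and Plau, and the co-receptor gene Nrp1. All 9 were found among the 16091 genes of the deposited table, and all 9 were among the 14189 genes abundant enough to be tested. The tissue was inguinal white adipose tissue (iWAT), the subcutaneous fat pad of the groin, from C57BL6/J mice. The 16 libraries formed 4 groups of 4: high-fat diet with an antibody against PDGFcc (the protein encoded by Pdgfc), high-fat diet untreated, control diet with the antibody, and control diet untreated. The antibody (AF1447) was injected into the peritoneum every 2 days for 2 weeks in mice aged 6 weeks, with a dose of 50 mg/kg dissolved in 100 µl. The sources used here do not give the length of the diets, the sex of the mice, any injection of untreated mice, or whether each library came from a separate animal. The p-values therefore describe scatter among these libraries, some of which may be technical. The antibody acts on a protein, and none of the values below measures protein or receptor activity.

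PDGF chains pair into secreted dimers that bring receptor chains together and start tyrosine kinase signalling. PDGFRA binds the A, B and C chains, and PDGFRB binds the B and D chains. The C and D chains leave the cell in a latent form: tissue plasminogen activator, the product of Plat, removes the blocking CUB domain from PDGF-CC, and urokinase, the product of Plau, does so for PDGF-DD. In fat, PDGFRA is a well-known marker of adipocyte progenitors and other stromal cells, PDGFRB marks pericytes and progenitors along vessels, and PDGF-B made by endothelial cells recruits pericytes. NRP1 is a co-receptor for semaphorins and VEGF-A that has also been reported to take part in PDGF signalling.

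Values are normalized counts as deposited, which summed to 24.02 to 28.15 per library in units of 1e6. Adipocyte markers were high in every library, for example Adipoq at 78008 to 97146 and Plin1 at 40527 to 63036 normalized counts, and Lep, the leptin gene, at 7059 to 61892. Of 9 listed mammary and skin epithelial markers 2 passed the filter on low genes, as did 1 of 6 mesothelial and 6 of 10 lymphocyte markers. Skeletal muscle transcripts varied most: the mean log2 level of 14 muscle markers was 3.21 to 7.91 in high-fat antibody libraries, 7.71 to 13.1 in high-fat untreated, 10.7 to 11.9 in control-diet antibody and 3.59 to 10.7 in control-diet untreated libraries. The high-fat antibody and control-diet antibody groups therefore did not overlap in muscle transcripts. Nor did control-diet antibody (lowest 10.74) and control-diet untreated libraries (highest 10.67). Of the 14 muscle markers, 13 had an unadjusted p under 0.05 by diet with antibody, 11 by antibody on the high-fat diet and 10 by antibody on the control diet (limma). Over all genes the shares were 18.1%, 13.5% and 11.6%, and 0 of the 14 passed after adjustment in each. Results that compare these groups carry that difference. In bulk tissue, fewer cells of a type and less RNA per cell cannot be told apart.

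Set against each other per kilobase of exon (the union of annotated exons), the receptors and urokinase were more abundant than the ligands. Plau averaged 804 ± 187 normalized counts per kb over all libraries (SD, n = 16), Nrp1 475 ± 52.4, Pdgfrb 403 ± 63.5 and Pdgfra 320.0 ± 64.3. Plat followed at 215 ± 61.1, Pdgfd at 205 ± 25.3, Pdgfb at 193 ± 25.5, Pdgfc at 125 ± 23.6 and Pdgfa at 74.0 ± 14.1 normalized counts per kb. Plat, Pdgfd and Pdgfb lay within 1 SD of each other, so their order is not separable from the spread between libraries. Of the summed ligand level per kb, Pdgfd supplied 34.3% ± 1.94, Pdgfb 32.4% ± 3.11, Pdgfc 20.9% ± 3.26 and Pdgfa 12.4% ± 1.85 (SD, n = 16). The share of Pdgfc, the target of the antibody, averaged 20.1% in high-fat antibody, 22.1% in high-fat untreated, 20.4% in control-diet antibody and 21.0% in control-diet untreated libraries, with SDs of 2.54 to 4.78 percentage points.

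**Figure D1:**
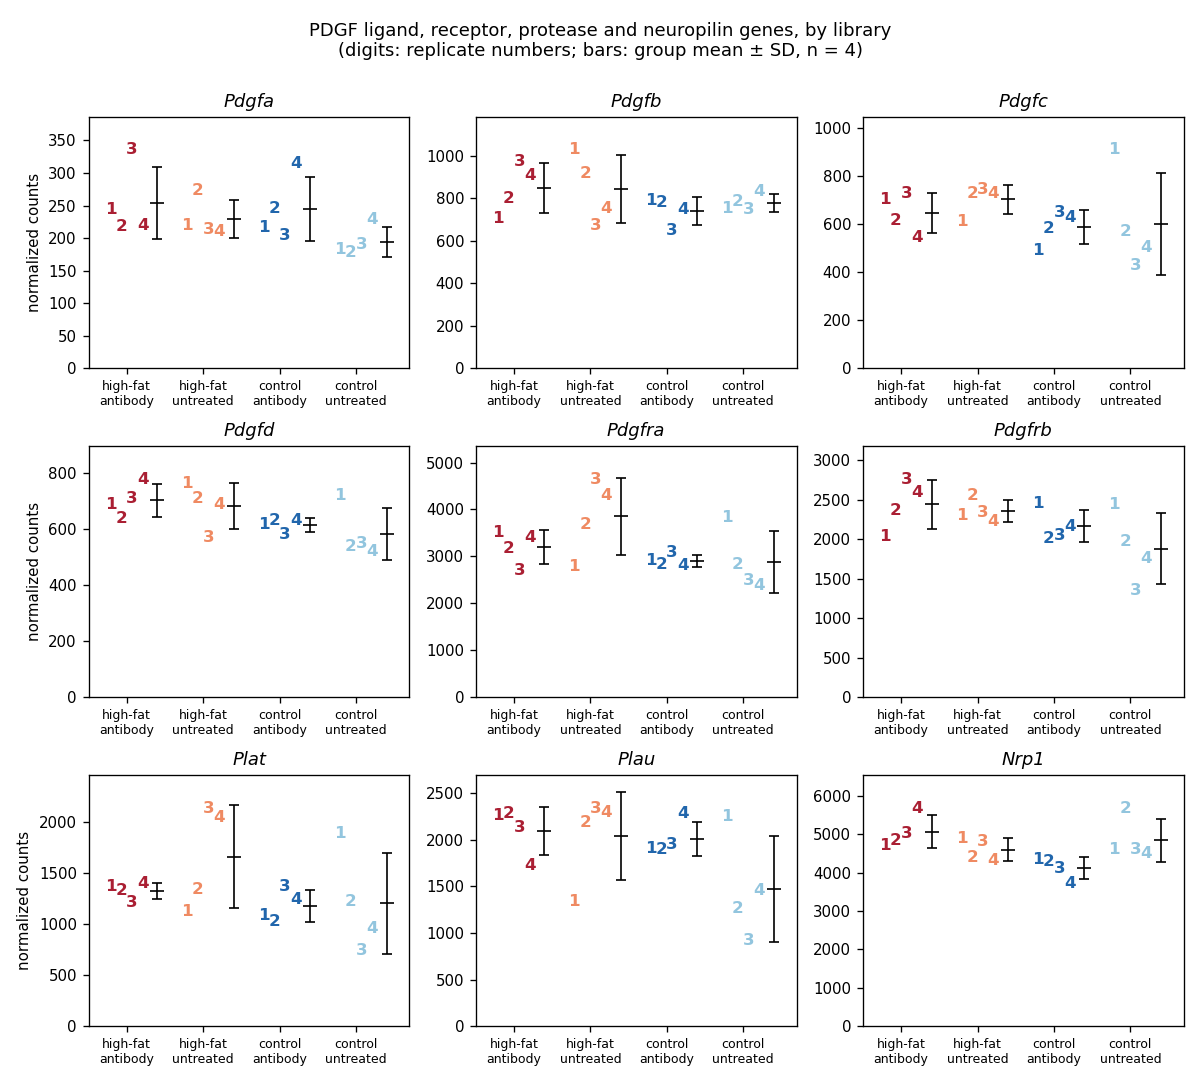
Normalized counts (linear axes from 0) of the 9 genes in the 16 libraries. Each digit is 1 library and gives its replicate number, with high-fat groups left of control-diet groups and antibody left of untreated within each diet; black bars give the group mean ± SD (n = 4). Control-diet untreated replicate 1 is the highest of its group for Pdgfc (909.5), Pdgfd (721), Pdgfra (3818), Pdgfrb (2435), Plat (1889) and Plau (2252).

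The promoter tables of RefSeq (GRCm38.p6) held entries for 5 of the 9 genes. The 250 bases upstream of the annotated start are printed for Pdgfc and Pdgfra, ligand and receptor whose levels moved together across libraries (described below), for Pdgfd, the closest relative of Pdgfc among the ligands, and for Pdgfa as the GC-rich contrast. Each is given 5′ to 3′ on the strand of the gene, in lower case, with capitals where 1 of 5 motifs matched on either strand: GGGCGG (the Sp1 box), TATAAA of the core promoter, CCAAT as bound by NF-Y, CACGTG (an E-box) and TGANTCA (the AP-1 site).
Pdgfc, chr3:81036166-81036415, + strand: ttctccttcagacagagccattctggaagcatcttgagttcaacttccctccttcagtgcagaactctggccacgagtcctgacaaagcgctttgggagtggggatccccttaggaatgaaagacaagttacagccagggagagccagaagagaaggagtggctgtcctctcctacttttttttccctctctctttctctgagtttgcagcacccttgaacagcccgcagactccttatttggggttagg
Pdgfra, chr5:75152001-75152250, + strand: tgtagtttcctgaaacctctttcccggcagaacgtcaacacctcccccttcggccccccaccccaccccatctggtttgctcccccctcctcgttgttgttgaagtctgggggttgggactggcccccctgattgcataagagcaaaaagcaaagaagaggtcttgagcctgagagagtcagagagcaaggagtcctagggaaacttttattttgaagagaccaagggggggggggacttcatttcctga
Pdgfd, chr9:6168236-6168485, + strand: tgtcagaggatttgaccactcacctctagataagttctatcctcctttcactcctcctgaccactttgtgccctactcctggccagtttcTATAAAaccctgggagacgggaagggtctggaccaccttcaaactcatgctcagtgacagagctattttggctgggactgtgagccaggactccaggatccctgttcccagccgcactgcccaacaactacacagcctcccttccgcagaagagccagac
Pdgfa, chr5:138994945-138995194, - strand: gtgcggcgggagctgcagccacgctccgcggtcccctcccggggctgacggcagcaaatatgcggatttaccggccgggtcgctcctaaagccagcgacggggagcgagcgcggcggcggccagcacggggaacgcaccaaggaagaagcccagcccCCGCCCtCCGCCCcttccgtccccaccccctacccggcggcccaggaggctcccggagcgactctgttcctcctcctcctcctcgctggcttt

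None of the 5 motifs was found in the Pdgfc or the Pdgfra window. The Pdgfd window held 1 TATAAA, and the Pdgfa window held 2 copies of the Sp1 box, read on the opposite strand as CCGCCC. Among 32851 promoters of the same length, 32.7% held GGGCGG, 12.4% TATAAA, 33.8% CCAAT, 6.02% CACGTG and 6.75% TGANTCA, and the motifs do not overlap in the windows printed. Base composition separated the Pdgfa window from the others printed, with 72.4% G or C and 28 CpG dinucleotides. A second Pdgfa entry, not printed, had 66.4% and 19, and the Nrp1 entry, also not printed, had 64.4% and 11. Each of these held 1 Sp1 box, so Pdgfa was not the only GC-rich gene among the 5 with entries. Both Pdgfa windows and the Nrp1 window lie within the gene spans given below, while those of Pdgfc, Pdgfra and Pdgfd lie upstream of theirs. The Pdgfc window had 50.8% and 3, the Pdgfra window 54.4% and 4, and the Pdgfd window 53.6% and 3, against medians of 52.4% and 6 over all promoters. These matches describe letters in a window and show no binding.

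Pdgfc (ENSMUSG00000028019, GRCm38 chromosome 3, 81036416 to 81214040, + strand), the ligand that the antibody binds, showed no detectable transcript difference between antibody and untreated libraries on either diet. It had 702, 615, 729 and 546 normalized counts in high-fat antibody libraries, against 612, 726, 746 and 728 in high-fat untreated libraries. On the control diet it had 491, 583, 651 and 626 in antibody libraries, against 909.5, 568, 426 and 505 in untreated libraries. The groups overlapped on both diets, and the untreated control-diet group spanned both the lowest and the highest library of all 16. The log2 change with antibody was -0.12 ± 0.18 (SE) on the high-fat diet, with a 95% interval of -0.51 to 0.26 (adjusted p = 0.828, limma). On the control diet it was 0.02 ± 0.18, with an interval of -0.37 to 0.40 (adjusted p = 0.986, limma). The high-fat minus control-diet change of Pdgfc was 0.28 ± 0.18 in untreated and 0.14 ± 0.18 in antibody-treated mice, and neither passed (adjusted p = 0.305 and 0.721, limma). The GENCODE vM21 annotation places an antisense gene, Gm16000, over 147 exon bases of Pdgfc. That gene was not among those of the deposited table.

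Pdgfd (ENSMUSG00000032006, chromosome 9, 6168584 to 6378850, + strand), the other latent ligand, had the narrowest span of the 9 genes over all libraries, with the highest 1.49 times the lowest. It had 688, 637, 709 and 779 normalized counts in high-fat antibody libraries, against 619, 632, 581 and 630.5 in control-diet antibody libraries. It had 763, 709, 571 and 687 in high-fat untreated libraries, against 721, 539.7, 550.3 and 521 in control-diet untreated libraries. With antibody, every high-fat library lay above every control-diet library, though the nearest pair, 637 and 632, was almost level. The exact two-sided permutation test of that difference gave p = 0.0286 (n = 4 and 4), the smallest value that 70 assignments allow, while in the fit across all genes the log2 change of 0.19 ± 0.11 did not pass (adjusted p = 0.360, limma). Averaged over antibody and no antibody, Pdgfd was 0.21 ± 0.08 higher on the high-fat diet (log2, 95% interval 0.05 to 0.37), the smallest adjusted p of the 9 genes in that comparison at 0.0620 (limma).

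Pdgfb (ENSMUSG00000000489, chromosome 15, 79995874 to 80014977, - strand), the ligand that endothelial cells use to recruit pericytes, averaged 848 ± 118 normalized counts in high-fat antibody, 843 ± 161 in high-fat untreated, 742 ± 66.1 in control-diet antibody and 779 ± 40.8 in control-diet untreated libraries (SD, n = 4 each). Its highest library was high-fat untreated replicate 1 at 1028 and its lowest control-diet antibody replicate 3 at 647, and groups overlapped in all comparisons. Pdgfa (ENSMUSG00000025856, chromosome 5, 138976014 to 138997370, - strand), the ligand specific to PDGFRA, had the lowest level per kb of the 9. It had 244, 218, 335 and 219 normalized counts in high-fat antibody libraries and 219.6, 273, 214 and 211 in high-fat untreated libraries. In control-diet mice it had 216, 246, 203 and 314 in antibody libraries and 182, 178, 189 and 229 in untreated libraries. The log2 change of Pdgfa with antibody was 0.13 ± 0.16 on the high-fat and 0.32 ± 0.16 on the control diet, and neither passed (adjusted p = 0.775 and 0.464, limma). Pdgfa shares 813 exon bases with 6330403L08Rik on the opposite strand, a gene that was measured at a median of 229.7 normalized counts. The library kit was stranded but whether reads were counted by strand is not stated by these sources, so the value of Pdgfa is uncertain; the log2 values of both genes correlated at r = 0.27 over 16 libraries.

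Pdgfra (ENSMUSG00000029231, chromosome 5, 75152292 to 75198215, + strand), the receptor for PDGF-CC and a marker of fat progenitors, was highest in high-fat untreated libraries. It had 3519, 3174, 2689.5 and 3407 normalized counts in high-fat antibody libraries, against 2905, 2835, 3083 and 2798 in control-diet antibody libraries. Without antibody it had 2774, 3687, 4648 and 4293 on the high-fat diet, against 3818, 2837, 2480.2 and 2370.4 on the control diet. High-fat untreated replicates 3 and 4 were above all other libraries, while replicate 1 of that group lay within the control-diet range. Untreated mice differed by diet by 0.42 ± 0.16 in log2 (95% interval 0.08 to 0.76), which did not pass over all genes (adjusted p = 0.0964, limma). With antibody the diet difference was 0.13 ± 0.16, with an interval of -0.21 to 0.47, and the 2 diet differences were not separable (interaction -0.29 ± 0.22, interval -0.77 to 0.19). The antibody minus untreated change on the high-fat diet, -0.25 ± 0.16, did not pass either (adjusted p = 0.535, limma). The antisense gene Gm42802 and Gm42803, an opposite-strand gene not classed as antisense, lie over 456 and 166 exon bases of Pdgfra. Neither was among the genes of the deposited table.

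Pdgfrb (ENSMUSG00000024620, chromosome 18, 61045150 to 61085061, + strand), the receptor of pericytes and perivascular progenitors, had 2039.8, 2367, 2762 and 2591 normalized counts in high-fat antibody libraries, against 2451, 2009, 2046 and 2163 in control-diet antibody libraries. Without antibody it had 2302, 2549, 2332 and 2226 on the high-fat diet, against 2435, 1967, 1351 and 1762 on the control diet. The high-fat untreated libraries were close together and overlapped the control-diet untreated group through its replicate 1 alone. The diet difference was 0.35 ± 0.14 (log2) without antibody and 0.17 ± 0.14 with it (adjusted p = 0.110 and 0.559, limma). The ratio of Pdgfra to Pdgfrb, both per kb, was 0.732 ± 0.168 in high-fat antibody, 0.898 ± 0.208 in high-fat untreated, 0.737 ± 0.0764 in control-diet antibody and 0.846 ± 0.116 in control-diet untreated libraries (SD, n = 4 each), so group means differed by less than 1 SD of the wider group.

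Plat (ENSMUSG00000031538, chromosome 8, 22757727 to 22782844, + strand), the activator of PDGF-CC, was the most variable of the 9 genes, with the highest library 2.86 times the lowest. It had 1367, 1328, 1215 and 1399 normalized counts in high-fat antibody libraries, against 1127, 1338, 2137 and 2041 in high-fat untreated libraries. Control-diet values were 1089, 1023, 1371 and 1242 in antibody libraries, against 1889, 1224, 746 and 958 in untreated libraries. Both antibody groups fell within the span of the untreated group on the same diet, and on the high-fat diet the untreated libraries split into a lower and an upper pair. The log2 change with antibody was -0.27 ± 0.24 on the high-fat and 0.05 ± 0.24 on the control diet (adjusted p = 0.683 and 0.968, limma). The diet difference in untreated mice was 0.50 ± 0.24, with an interval of -0.02 to 1.01 (adjusted p = 0.180, limma).

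Plau (ENSMUSG00000021822, chromosome 14, 20836660 to 20843385, + strand), the activator of PDGF-DD, had 2255, 2280.2, 2131 and 1719 normalized counts in high-fat antibody libraries, against 1333, 2182, 2339 and 2292 in high-fat untreated libraries. For the control diet the values were 1906, 1895, 1948 and 2276 in antibody libraries, against 2252, 1258, 919 and 1450.4 in untreated libraries. The control-diet untreated libraries other than replicate 1 sat below most of the remaining libraries. The change with antibody on the control diet was 0.52 ± 0.22 in log2 (95% interval 0.04 to 0.998), the largest antibody change among the 9 genes, and it did not pass (unadjusted p = 0.0345, adjusted p = 0.383, limma). The exact permutation p of that difference was 0.114 (n = 4 and 4). The change was 0.32 without control-diet untreated replicate 3 and 0.75 without replicate 1 of that group. The diet difference in untreated mice was 0.51 ± 0.22 (adjusted p = 0.141, limma). The Plau to Plat ratio, both per kb, averaged 4.19 ± 0.641 in high-fat antibody, 3.32 ± 0.663 in high-fat untreated, 4.52 ± 0.528 in control-diet antibody and 3.27 ± 0.533 in control-diet untreated libraries (SD, n = 4 each); no test was made on this ratio.

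Nrp1 (ENSMUSG00000025810, chromosome 8, 128358604 to 128503363, + strand), the co-receptor, was the 1 gene of the 9 whose fitted value was lower on the high-fat diet in untreated mice, at a log2 change of -0.07, which was 0.03 with columns scaled to a common total. It had 4712, 4836, 5004 and 5673 normalized counts in high-fat antibody libraries, against 4338, 4290.1, 4111 and 3722 in control-diet antibody libraries. Without antibody it had 4884, 4386, 4815 and 4301 on the high-fat diet, against 4589, 5677, 4590.1 and 4505 on the control diet. Control-diet antibody libraries were below every library of the high-fat antibody and of the control-diet untreated group. The diet difference with antibody was 0.30 ± 0.09 in log2 (95% interval 0.11 to 0.48; unadjusted p = 0.00376, adjusted p = 0.118, limma), and the antibody change on the control diet was -0.23 ± 0.09 (unadjusted p = 0.0178, adjusted p = 0.317, limma). Each gave p = 0.0286 in the exact permutation test (n = 4 and 4), the smallest value possible. The interaction of diet and antibody was 0.37 ± 0.12 (interval 0.11 to 0.63; unadjusted p = 0.00906, adjusted p = 0.483, limma). Both comparisons share the control-diet antibody libraries, which also held the highest muscle marker means of the antibody groups; over all 16 libraries Nrp1 and the muscle mean correlated at r = -0.43, and at 0.20 once group means were removed. With the muscle marker mean as a covariate, added to the fit as an alternative, the diet difference with antibody was 0.36. The antibody change on the control diet was then -0.26, and neither passed (adjusted p = 0.191 and 0.495, limma). The groups of each comparison did not overlap in the muscle mean, so this fit cannot separate muscle from group.

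**Figure D2:**
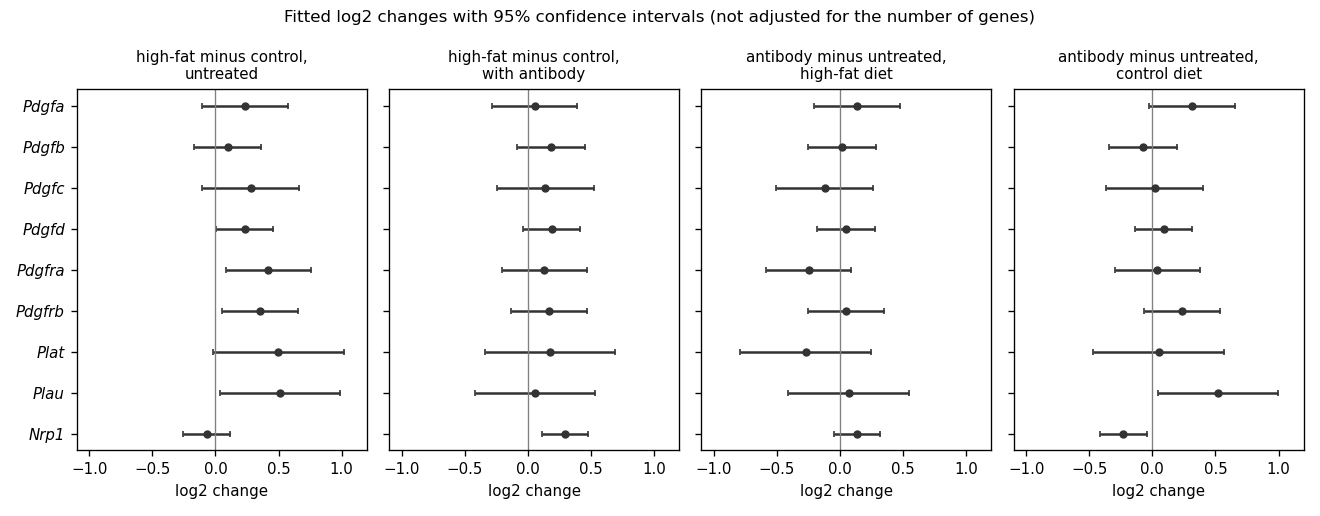
Log2 changes of the 9 genes (points) with 95% confidence intervals (bars, not adjusted for the number of genes) in the 4 comparisons between single groups, from the fit to all 16 libraries; the vertical line marks no change. Intervals to the right of 0 appear for Pdgfd, Pdgfra, Pdgfrb and Plau in untreated mice by diet, for Nrp1 by diet with antibody and for Plau by antibody on the control diet, and Nrp1 by antibody on the control diet lies to the left, but none passed the threshold over all genes.

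Across the comparisons, nearly every PDGF gene had a higher fitted value on the high-fat diet, the antibody changes pointed both ways, and no single gene passed. An adjusted p under 0.05 from limma was the threshold, and 0 of the 9 genes passed in any of the 7 contrasts. In untreated mice by diet 8 of 9 were higher on the high-fat diet (all but Nrp1, whose sign depended on the scaling as given above), with a median log2 change of 0.28 against 0.02 over all genes, of which 53.1% were higher; 4 had an unadjusted p under 0.05 (Pdgfd, Pdgfra, Pdgfrb and Plau), where 30.3% of all genes did and 8.15% passed after adjustment. With antibody, 9 of 9 were higher on the high-fat diet (median 0.17; 53.9% of all genes were higher), 1 had an unadjusted p under 0.05 (Nrp1), and the shares over all genes were 18.1% unadjusted and 0.00705% adjusted. For the diet averaged over both antibody states, 9 of 9 were higher (median 0.21; 54.1% of all genes), 3 had an unadjusted p under 0.05 (Pdgfd, Pdgfra and Pdgfrb), 36% of all genes did, and 19.4% passed after adjustment, 8.28% higher and 11.1% lower. After adjustment and with all libraries, the 9 genes were thus called no more often than genes in general. At these shares, 9 genes are too few for 0 calls to set them apart from other genes.

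For the antibody, 6 of 9 genes were higher on the high-fat diet (median log2 change 0.05; 50.1% of all genes were higher) and 0 had an unadjusted p under 0.05, against 13.5% of all genes, of which 0.0775% passed after adjustment (limma). On the control diet 7 of 9 were higher (median 0.05; 48.0% of all genes) and 2 had an unadjusted p under 0.05 (Plau higher and Nrp1 lower), against 11.6% of all genes and 0.0987% after adjustment. Averaged over diets 4 of 9 were higher (median -0.03; 47.6% of all genes) and 0 had an unadjusted p under 0.05, against 16.8% of all genes and 2.52% after adjustment. The interaction was below 0 in 7 of 9 genes (median -0.18; 52.7% of all genes were above 0), 1 had an unadjusted p under 0.05 (Nrp1), and over all genes 6.18% had one and 0% passed after adjustment. Groups of single libraries did not overlap for 2 of 9 genes by diet with antibody (Pdgfd and Nrp1; 15.5% of all genes), for 1 by antibody on the control diet (Nrp1; 6.77%), for 0 by diet without antibody (9.73%) and for 0 by antibody on the high-fat diet (7.38%).

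The diet calls changed with the libraries and the scaling used. With columns scaled to a common total, 4 of the 9 genes (Pdgfd, Pdgfra, Pdgfrb and Nrp1) passed for the average diet effect (limma). That scaling also moved the median log2 change over all genes for this effect from 0.02 to 0.11. Without control-diet untreated replicate 1, 6 of the 9 genes passed for the diet effect in untreated mice, all higher on the high-fat diet, where 29.1% of all 14142 genes then tested passed. Plat was higher by 0.74 ± 0.21 in log2 (adjusted p = 0.0168, limma), Plau by 0.74 ± 0.19 (0.0111), Pdgfra by 0.56 ± 0.14 (0.0110), Pdgfc by 0.50 ± 0.13 (0.0116), Pdgfrb by 0.49 ± 0.12 (0.0109) and Pdgfd by 0.34 ± 0.09 (0.0152). The same 6 genes passed for the diet effect averaged over antibody states, where 33.4% of all genes did. Control-diet untreated replicate 1 was the highest of its group for each of these 6, so leaving it out could only raise their diet change. That library also had the highest macrophage marker mean (log2 10.8) and progenitor marker mean (11.2) of the control-diet untreated group, whose replicate 3 had the lowest (9.79 and 10.1). Without high-fat untreated replicate 1, Pdgfra (0.57, adjusted p = 0.0247, limma) and Plau (0.70, adjusted p = 0.0415) passed in untreated mice by diet, and Pdgfra (0.35, adjusted p = 0.0235) for the average diet effect; without high-fat untreated replicate 3, Pdgfd passed for the average (0.25, adjusted p = 0.0327). The share of all genes that passed is not given here for the common total or without high-fat untreated replicate 1 or 3. Those calls are therefore not set against genes in general. For the antibody contrasts and the interaction, 0 of the 9 genes passed with any 1 of the 16 libraries left out (limma).

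The spread itself differed between groups. On the control diet 7 of the 9 genes had a smaller SD of log2 values in antibody than in untreated libraries, as did 75.4% of all genes tested. Plat had a coefficient of variation of 13.2% in control-diet antibody and 41.2% in control-diet untreated libraries, Plau 9.03% and 38.5%, and Pdgfra 4.35% and 22.9%. It was larger with antibody for Pdgfa (20.3% and 11.9%) and Pdgfb (8.91% and 5.24%). On the high-fat diet 5 of 9 had a smaller SD with antibody, as did 55.1% of all genes. The fit assumes 1 spread per gene for the 4 groups.

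Most of the 9 genes could be placed in sets, by their correlation from library to library with each other or with marker lists. Plat, Pdgfra, Pdgfc and Plau formed one: all 6 pairs among them correlated, from r = 0.64 for Pdgfra with Plau to 0.92 for Pdgfra with Plat, and each followed the mean log2 level of macrophage and of adipose progenitor markers, lists that hold none of the 9 genes. Pdgfb, Pdgfd and Pdgfrb instead followed endothelial and mural (pericyte and smooth muscle) markers. Of the pairs among these, Pdgfd with Pdgfrb passed (r = 0.69), while Pdgfb with Pdgfd (r = 0.54, permutation p = 0.0300, adjusted p = 0.0982) and Pdgfb with Pdgfrb (r = 0.40) did not. Pdgfrb also gave r = 0.70 with Plau, 0.60 with Pdgfc, 0.57 with Plat and 0.46 with Pdgfra, of which the first passed. Of 90 relations computed, 23 had an adjusted p under 0.05 for Pearson's r, 8 between genes and 15 between a gene and a list, where p-values came from 100000 permutations, the smallest value possible was 1e-05, and adjustment was over the 90. All values of a library share its depth and normalization, so that these relations are descriptions of covariation.

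Pdgfra followed the 14 macrophage markers with r = 0.93 (permutation p = 1e-05, adjusted p = 0.00018) and Spearman's rho = 0.85 (permutation p = 4e-05, adjusted p = 0.00072) over 16 libraries. Leaving out the 2 libraries farthest from the median of the list gave r = 0.88, and removing group means gave 0.90. Plat followed the same list with r = 0.93 (permutation p = 1e-05, adjusted 0.00018) and rho = 0.92 (permutation p = 1e-05, adjusted 0.00045), 0.87 without the 2 farthest libraries and 0.91 with group means removed. Pdgfc followed the 15 progenitor markers with r = 0.88 (permutation p = 1e-05, adjusted 0.00018) and rho = 0.83 (permutation p = 0.00014, adjusted 0.0021), 0.75 without the 2 farthest and 0.86 with group means removed. Plau followed the progenitor list with r = 0.82 (permutation p = 9e-05, adjusted 0.00116) and rho = 0.81 (permutation p = 0.00026, adjusted 0.0026), 0.67 without the 2 farthest and 0.86 with group means removed. With the other list of the 2, r was 0.80 for Pdgfra, 0.93 for Plat, 0.84 for Pdgfc and 0.76 for Plau. Without the 2 libraries farthest from the median of that list it was 0.86, 0.92, 0.88 and 0.78. The progenitor and macrophage list means themselves correlated at r = 0.89, so these libraries do not separate the one from the other. In groups, the macrophage mean was 10.5 ± 0.19 in high-fat antibody, 10.7 ± 0.39 in high-fat untreated, 10.3 ± 0.17 in control-diet antibody and 10.2 ± 0.42 in control-diet untreated libraries (log2, SD, n = 4). For the average diet effect 3 of the 14 macrophage markers passed, all higher (Cd68, Mertk and Trem2), and 1 of the 15 progenitor markers (Icam1, higher), limma, where 8.28% of all genes passed as higher and 19.4% in either direction; their part in the PDGF gene values was not tested.

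**Figure D3:**
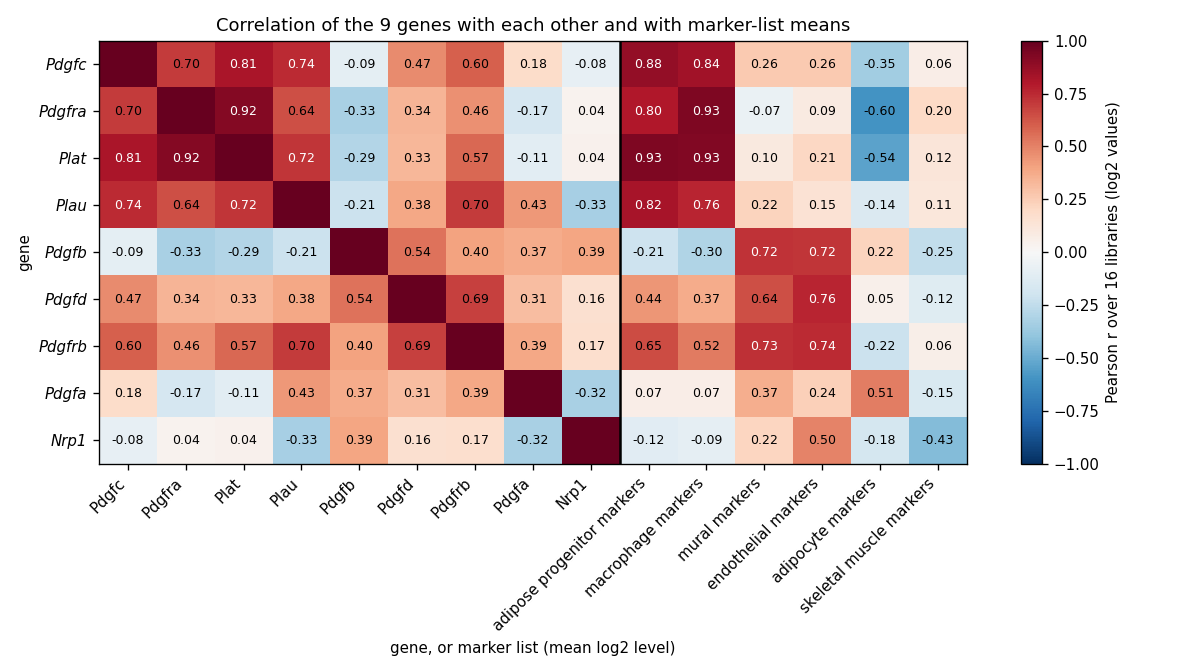
Pearson's r over 16 libraries (colour and printed value, log2 levels) between the 9 genes (rows) and the 9 genes and 6 marker-list means (columns; the black line divides them). Pdgfc, Pdgfra, Plat and Plau form a block of positive values that extends to the progenitor and macrophage columns, Pdgfb, Pdgfd and Pdgfrb are positive in the mural and endothelial columns, and Pdgfa and Nrp1 belong to neither.

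The vascular set was less tight. Pdgfb followed the 12 mural markers with r = 0.72 (permutation p = 0.00149, adjusted 0.00889) and rho = 0.78 (permutation p = 0.00059, adjusted 0.00483), with r = 0.69 without the 2 farthest libraries and 0.74 with group means removed. Pdgfd followed the 12 endothelial markers with r = 0.76 (permutation p = 0.00066, adjusted 0.00471) and rho = 0.74 (permutation p = 0.00141, adjusted 0.00976), and Pdgfrb did so with r = 0.74 (permutation p = 0.00058, adjusted 0.00471) and rho = 0.82 (permutation p = 0.00024, adjusted 0.0026). Their r was 0.68 and 0.67 without the 2 farthest libraries and 0.64 and 0.69 with group means removed. Mural and endothelial list means correlated at r = 0.84, and the endothelial list with the macrophage list at 0.12. By diet averaged over antibody states, 3 of the 12 mural and 2 of the 12 endothelial markers passed, all higher (limma), where 8.28% of all genes passed as higher. The part of these markers in the PDGF gene values was not tested. Pdgfrb also correlated with Plau (r = 0.70, permutation p = 0.00502, adjusted 0.0226; rho = 0.37, permutation p = 0.160, adjusted 0.367), but r was 0.29 without the 2 farthest libraries, so that relation rests on them, as does Pdgfrb with the progenitor list (r = 0.65, permutation p = 0.0114; rho = 0.36, permutation p = 0.175; 0.22 without them). The ligand and its receptor were not alike in every pair: Pdgfc with Pdgfra gave r = 0.70 (permutation p = 0.00228, adjusted 0.0108) and rho = 0.62 (permutation p = 0.0114, adjusted 0.0488), Pdgfd with Pdgfrb r = 0.69 (permutation p = 0.00158, adjusted 0.00889) and rho = 0.69 (permutation p = 0.00386, adjusted 0.0194), while Pdgfb with Pdgfrb gave 0.40 (permutation p = 0.125, adjusted 0.303; rho = 0.47, permutation p = 0.0663) and Pdgfa with Pdgfra -0.17 (permutation p = 0.539, adjusted 0.713; rho = -0.28, permutation p = 0.298).

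**Figure D4:**
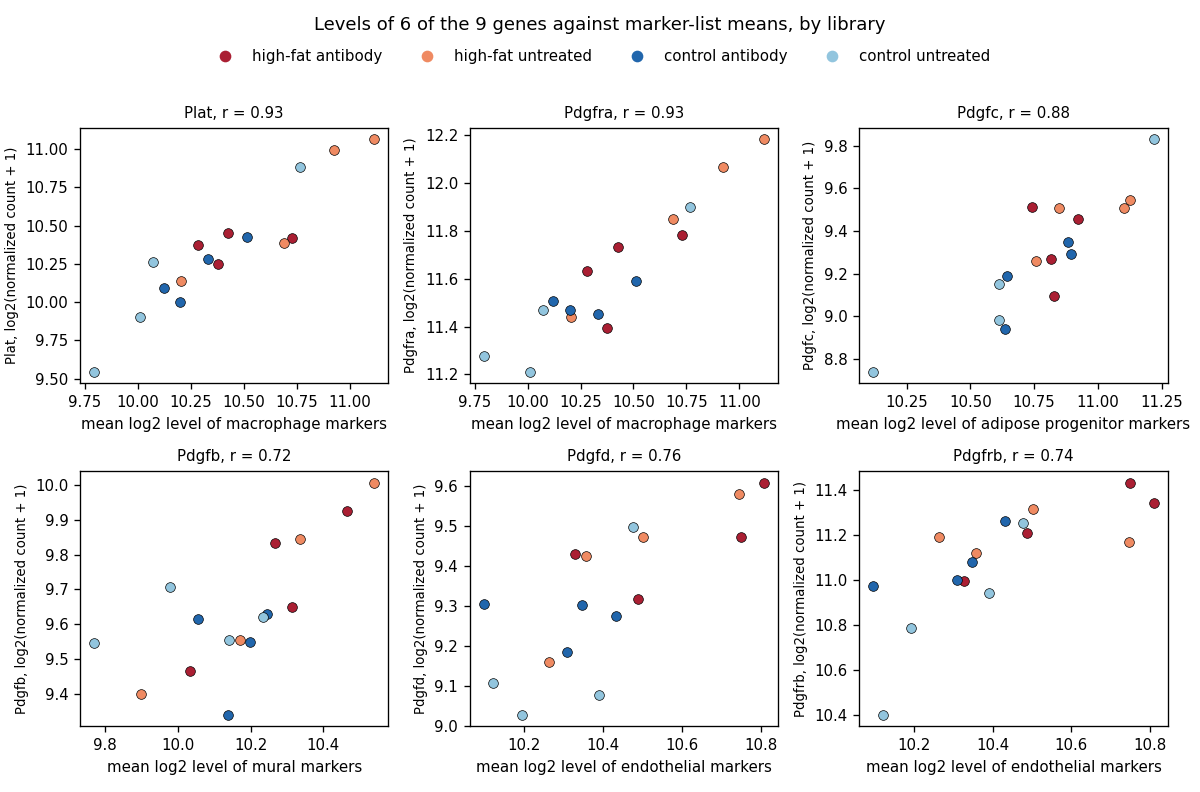
Log2 level of 6 of the 9 genes (vertical axes, log2 of normalized count + 1) against the mean log2 level of a marker list (horizontal axes) in 16 libraries, coloured by group. Libraries of every group lie along the Plat, Pdgfra and Pdgfc trends (r = 0.93, 0.93 and 0.88), and points scatter more for Pdgfb, Pdgfd and Pdgfrb (r = 0.72, 0.76 and 0.74).

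Genes most like each of the 9, by Pearson's r of log2 levels over the 16 libraries and among all genes tested, differed between the sets. For Pdgfra they were Ddr2, a collagen receptor (r = 0.96), Mrc1, the macrophage mannose receptor (0.95), and Sulf1, an extracellular sulfatase (0.95). Plat was closest to Ltbp1, a latent TGF-beta binding protein (0.96), Ifitm2 (0.96) and Cmtm3 (0.96), and among the genes close to Pdgfc were Adamts2, a procollagen peptidase (0.95), and Man1a (0.94). The nearest to Plau were Rab3il1 (0.94), Kcnab2 (0.94) and Prrx1, a mesenchymal transcription factor (0.93). Pdgfrb had Sema4c (0.94), 9330175E14Rik (0.91) and Plxna3 (0.91), and Pdgfb had Sox7, an endothelial transcription factor (0.87), Sncaip (0.86) and Afap1l1 (0.85). Among the genes close to Pdgfd were Atp1a4 (0.88) and Gpsm1 (0.85). Pdgfa was closest to Vhl (0.89), Cdc42ep1 (0.89) and Map7d1 (0.88), and Nrp1 was closest to Zfp609 (0.89), Btnl9 (0.85) and Mmp17 (0.83). No p is given for these genes because they were picked as close among 14189.

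Around the 9 genes, several transcripts of extracellular proteins that bind or process PDGFs or act with their proteases were higher on the high-fat diet. Of 21 listed, 16 were tested, and for the diet averaged over antibody states 7 were higher and 1 lower in high-fat libraries and 8 did not pass (median log2 change 0.39 against 0.02 over all genes, limma). Over all genes 8.28% passed as higher and 11.1% as lower. This list and those described below were chosen with earlier results of these data known, so their counts are no test against genes in general. Plaur, the urokinase receptor, averaged 145 ± 39.1 normalized counts in high-fat and 76.9 ± 20.3 in control-diet libraries (SD, n = 8), a log2 change of 0.90 ± 0.17 (adjusted p = 0.00691, limma). Hspg2, the heparan sulphate proteoglycan perlecan, was higher by 0.62 ± 0.13 and Lrp1, a scavenger receptor that clears protease complexes and binds PDGFRB, by 0.34 ± 0.08 (adjusted p = 0.00963 and 0.0131, limma). Sparc, a matrix protein that binds PDGF, rose by 0.46 ± 0.13, while Furin, the proprotein convertase that cuts PDGF-A and PDGF-B precursors, fell by 0.18 ± 0.06 (adjusted p = 0.0272 and 0.0385, limma). In untreated mice by diet Plaur (1.26 ± 0.24, adjusted p = 0.0178) and Itgb2 (0.75 ± 0.21, adjusted p = 0.0438, limma), a leukocyte integrin subunit, were higher, where 8.15% of all genes passed; Plaur passed there under 20 of 27 alternatives and Itgb2 under 9. In the antibody contrasts 0 of the 16 passed with all libraries, with 1 or 2 at an unadjusted p under 0.05 in each, and 1 passed on the control diet and for the antibody average without control-diet untreated replicate 3 (limma).

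The count of 7 higher regulators moved with single libraries. It was 11 without control-diet untreated replicate 1, 4 without control-diet antibody replicate 1, high-fat antibody replicate 3 or high-fat untreated replicate 3, and 3 without control-diet antibody replicate 2 or control-diet untreated replicate 4. For the average diet effect Plaur, Hspg2 and Lrp1 passed under all 26 alternatives, Pcsk5 under 23, Sparc under 19, Itgb2 under 15, Itgav under 13 and Furin under 10.

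**Figure D5:**
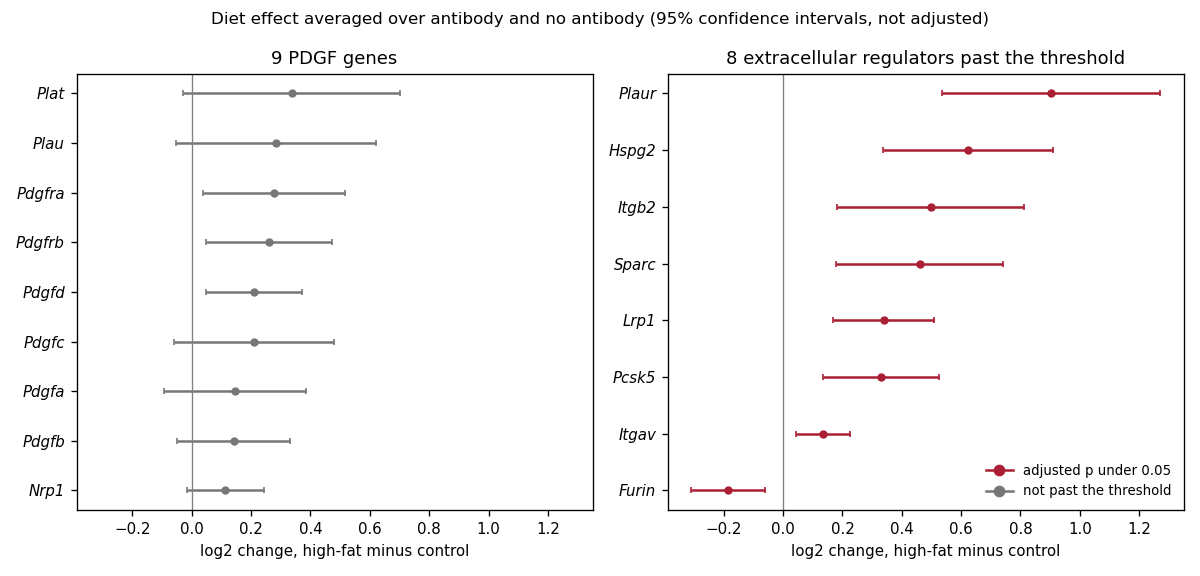
Log2 change by diet (high-fat minus control, averaged over antibody and no antibody; points) with 95% confidence intervals (bars, not adjusted) for the 9 PDGF genes (left) and for the 8 of 16 extracellular regulators that passed (right, in red, adjusted p under 0.05, limma). The 9 PDGF genes lie between 0.11 and 0.34 and none passes, while Plaur (0.90) and Hspg2 (0.62) are the highest of the 8 regulators shown and Furin (-0.18) the lowest.

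Inside the cell, calls among genes of PDGF receptor signalling were few in the fit to all libraries and depended on the libraries used. Of 35 signalling genes, 1 was higher and 2 were lower with antibody averaged over diets, where 2.52% of all genes passed: Gab1, a docking protein, at 955 ± 155 normalized counts in antibody and 692 ± 90.7 in untreated libraries (SD, n = 8; log2 change 0.46 ± 0.09, adjusted p = 0.0161, limma), the adaptor Crkl, lower by 0.21 ± 0.04, and Pik3ca, the catalytic subunit of PI3 kinase, lower by 0.18 ± 0.04 (adjusted p = 0.00946 and 0.0374, limma). Among 18 negative regulators, 2 were lower with antibody: Spry1, an inhibitor of receptor tyrosine kinase signalling, at 389.8 ± 57.4 and 530.4 ± 53.1 normalized counts in antibody and untreated libraries (log2 change -0.45 ± 0.09, adjusted p = 0.0216, limma), and Cblb, a ubiquitin ligase (-0.33 ± 0.07, adjusted p = 0.0310, limma). Gab1 passed under all 26 alternatives, Crkl under 25, Spry1 under 23, Cblb under 14 and Pik3ca under 10. By diet, 2 signalling genes were higher (Stat3 by 0.27 ± 0.06, Nras by 0.19 ± 0.06) and 3 were lower (Hras by 0.23, Map2k2 by 0.29 and Map2k1 by 0.15 in log2), and of the negative regulators Cblb was higher (0.37 ± 0.07) and Acp1 lower, where 19.4% of all genes passed (limma). For the diet average, Stat3, Hras, Map2k2 and Cblb passed under all 26 alternatives, Map2k1 under 25, Nras under 14 and Acp1 under 7. The 3 signalling genes called for the antibody became 8 without high-fat untreated replicate 1, 5 without control-diet untreated replicate 3 or 4, and 7 with quantile normalization. The 5 called by diet became 11 without control-diet untreated replicate 1 and 12 with a common total. For the negative regulators, the 2 called for the antibody became 0 without high-fat antibody replicate 2 or high-fat untreated replicate 4, and the 2 called by diet became 6 without control-diet untreated replicate 1. These lists also serve many other receptors, and their members are not specific to PDGF.

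Of 17 genes listed as partners of NRP1, 1 was higher and 1 lower by diet averaged over antibody states (limma). Over all genes 19.4% passed for that effect. For the antibody average 0 of the 17 passed, with 1 at an unadjusted p under 0.05 (limma). Binding to NRP1 was not measured. Sema3f, a secreted semaphorin, was higher by 0.39 ± 0.09 (adjusted p = 0.0112, limma) and Gipc1, a scaffold protein, lower by 0.15 ± 0.05 (adjusted p = 0.0365, limma); Sema3f passed under all 26 alternatives and Gipc1 under 11. The 2 partners called by diet became 5 without control-diet untreated replicate 1, without high-fat antibody replicate 1 or with a common total, and 1 was called for the antibody average without high-fat untreated replicate 4. Among 12 immediate early genes, which PDGF and many other stimuli induce, 2 passed in untreated mice by diet, where 8.15% of all genes did. Fos had 406 ± 241 normalized counts in high-fat untreated and 92.4 ± 8.43 in control-diet untreated libraries (log2 change 1.91 ± 0.35, adjusted p = 0.0149, limma), and Nr4a1 521 ± 401 and 126 ± 26.4 (1.71 ± 0.42, adjusted p = 0.0342, limma). Fos passed under 22 of 27 alternatives and Nr4a1 under 17. The count of 2 became 7 without control-diet untreated replicate 1, 6 without high-fat untreated replicate 1 or with a common total, and 0 without replicate 4 of either untreated group. In high-fat antibody against high-fat untreated libraries, 11 of the 12 were lower and 1 higher, with 5 at an unadjusted p under 0.05 and 0 past the threshold, or 1 without high-fat untreated replicate 1 (median log2 change -0.53, limma), where 13.5% of all genes had such a p and 0.0775% passed. In control-diet antibody against control-diet untreated libraries, 10 of the 12 were higher and 2 lower, with 2 at an unadjusted p under 0.05 and 0 past the threshold (median 0.47, limma), where 11.6% of all genes had such a p and 0.0987% passed. Both contrasts share their untreated libraries with the diet comparison in untreated mice, so they are not separate observations from it. In high-fat untreated libraries Fos ran from 189 to 663 and Nr4a1 from 137 to 1085 normalized counts.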

How the data were processed

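Poly-A RNA of 16 iWAT libraries was measured by stranded sequencing, per the labels' protocols. The submitters' processing notes name STAR 2.7.0e, Subread 1.6.2 with featureCounts, fastp 0.20.1, limma 3.42.2 and the builds GRCm38 and mm10, without their roles; the normalization method is not stated. For each gene the deposited table gives 1 linear signal value per library, called normalized counts, which the authors made from their reads. The values were not whole and whole reads could not be recovered, so no count model was run, the read depth is unknown, and 0 columns were left unmapped.

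Values were converted to log2(value + 1), which understates changes of low genes. Genes above 24.5 normalized counts (the median column total divided by 1e6, standing for 1 CPM) in at least 4 libraries were tested, which left out 1902. A model with 1 mean for each of 4 groups was fitted with limma 3.58.1 (R 4.3.3, variance trend, 12 residual degrees of freedom), two-sided, with Benjamini-Hochberg adjustment over 14189 genes within each of 7 contrasts. Exact permutation tests used 70 assignments. The fit was tested on simulated data. Gene coordinates and exon lengths come from GENCODE vM21. All 9 genes are named in each contrast, up to 4 passing genes of each list, and the 3 genes closest to each of the 9; some genes these rules pick are not reported here. The 9 genes and all lists were chosen with earlier results of these data known. The 27 alternatives are another pseudocount, filter, scaling, variance or sample set, a replicate block, a muscle covariate and each library left out.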

Additional observations from a re-analysis of the deposited data

Results flagged for a closer look

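In 36 groups of 4 values (9 genes in 4 groups), 6 had a highest or lowest library whose gap to its nearest neighbour, divided by the group's range, was above Dixon's 95% critical value for 4 samples. Chance flags about 1 in 20 such groups. Plau, the urokinase gene, had 2 of the 6: control-diet antibody replicate 4 was far above its group (2276 normalized counts, gap ratio 0.850) and high-fat untreated replicate 1 was far below (1333, 0.876). That same high-fat library was also far below its group for Pdgfc (612 normalized counts, 0.863). Among the ligands, Pdgfa was far above its group in high-fat untreated replicate 2 (273 normalized counts, 0.840) and Pdgfd in control-diet untreated replicate 1 (721, 0.834). Nrp1 had the widest gap ratio of the 6, 0.919, in control-diet untreated replicate 2 (5677 normalized counts). Without that library the log2 change of Nrp1 with antibody on the control diet was -0.15, against -0.23 with all 16 libraries, and neither value passed (limma).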

How the results depend on the processing

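Of 1674 values of the 9 genes under alternatives, 48 changed sign, 32 of them with 1 library left out, and 21 passed the threshold, all of them diet effects. With columns scaled to a common total, the median gene moved from 0.02 to 0.12 (diet, untreated) and from 0.02 to 0.11 (average diet effect). Pdgfd, Pdgfra, Pdgfrb and Nrp1 then passed for the average diet effect (adjusted p = 0.0246, 0.0452, 0.0401 and 0.0404, limma), and Nrp1 in untreated mice by diet turned to 0.032. With the muscle covariate Pdgfra passed for that effect (0.37, adjusted p = 0.0485, limma), and values turned for Pdgfa by diet with antibody (-0.083), Pdgfb with antibody on the high-fat diet (-0.0016), Pdgfc (-0.062), Pdgfra (-0.098) and Plat (-0.081) with antibody on the control diet, and the interactions of Pdgfc (0.051), Pdgfd (0.056), Pdgfra (0.043) and Pdgfrb (0.066). Quantile normalization turned Pdgfc with antibody on the control diet (-0.0061). Leaving out control-diet untreated replicate 3 and high-fat untreated replicate 2 together, which had the highest column total and the highest muscle marker mean, turned Pdgfc (-0.13), Pdgfra (-0.023) and Plat (-0.15) with antibody on the control diet and the interactions of Pdgfc (0.023) and Pdgfd (0.0031). The causes were not tested.

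With 1 library left out, log2 changes that turned spanned, by diet in untreated mice, -0.10 to 0.0088 for Nrp1 and -0.0064 to 0.20 for Pdgfb; by diet with antibody, -0.086 to 0.18 for Pdgfa. With antibody on the high-fat diet they spanned -0.0054 to 0.22 for Pdgfa, -0.084 to 0.12 for Pdgfb, -0.035 to 0.10 for Pdgfd, -0.017 to 0.13 for Pdgfrb and -0.12 to 0.16 for Plau. With antibody on the control diet they spanned -0.13 to 0.24 for Pdgfc, -0.045 to 0.18 for Pdgfra and -0.15 to 0.30 for Plat. Averaged over diets the antibody change spanned -0.078 to 0.023 for Pdgfb, -0.13 to 0.056 for Pdgfc and -0.21 to 0.011 for Plat. Interactions spanned -0.011 to 0.19 for Pdgfb, -0.36 to 0.0058 for Pdgfc and -0.15 to 0.015 for Pdgfd.

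Counts over all genes moved more. The 1157 genes called by diet in untreated mice became 726 without a variance trend, 117 with the muscle covariate, 0 with only the groups compared, 0 without those 2 libraries together, and 0 (without control-diet untreated replicate 4) to 4115 (without replicate 1) with 1 library left out. By diet with antibody, 1 became 2 without a filter, 4 with a common total, 539 with only the groups compared, 246 without those 2 libraries together and 0 to 223 with 1 left out. With antibody on the high-fat diet, 11 became 5 with only the groups compared, 0 with the covariate and 1 to 271. On the control diet, 14 became 3 without a trend, 0 with only the groups compared, 5 with the covariate and 0 to 75. Averages gave 144 to 535 for the antibody (358) and 1588 to 4718 for diet (2757, or 1518 without those 2 libraries together), and the interaction 0 to 1. Only a number is known to link replicates across groups: 10 of 24 same-number pairs deviated together at a correlation above 0.1, and 6 of 16 libraries correlated best with their own number. The median correlation was 0.03 for same-number pairs and -0.02 for other pairs across groups. All pairs of number 2 were positive (0.13 to 0.49), while the lowest same-number pair was at -0.54. Whether libraries of number 2 share a factor was not tested. With a replicate block the counts were 0, 0, 2 and 2 for the 4 single comparisons in this order, 123 and 1498 for the antibody and diet averages, and 1 for the interaction. The unknown read depth leaves the counting error of low genes such as Pdgfa unstated.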
